A study of Saccharomyces cerevisiae with 24 samples.

Results

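The genes described here encode 10 cell wall mannoproteins of budding yeast, CWP1, CWP2, SED1, PIR1, PIR3, HSP150, CIS3, SPI1, YGP1 and CCW12. They were picked by name out of the 6427 genes in the expression tables, and all 10 were measured. RNA came from BY4741, a haploid MATa laboratory strain that lacks working HIS3, LEU2, MET15 and URA3 genes, and every library shares that background. Each of 3 mid-log cultures in rich YEPD medium was washed into phosphate-buffered saline, chilled and divided in 2. Control cells remained on ice. The other portion was spread over small tubes in a freezer block, exposed for 30 s to an ultraviolet laser and pooled again. Both portions then went into warm YEPD and were sampled at 0, 15, 30 and 60 min (T0, T15, T30 and T60), which gave 24 libraries in 8 groups of 3. The light therefore cannot be told apart from the handling in tubes, and each fall after T0 begins in cells that had been chilled and held without nutrients.

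The yeast wall is a mesh of glucan and a little chitin that carries an outer coat of heavily mannosylated proteins. Most of these proteins reach the wall through a glycosylphosphatidylinositol (GPI) anchor that is clipped and joined to β-1,6-glucan, while the PIR proteins, named for their internal repeats, are cut by the Kex2 protease and bound to β-1,3-glucan through an alkali-sensitive bond. Genes of the coat are read at different points of the cell cycle, and several are known targets of the cell wall integrity pathway, which acts through the kinase Slt2 and the factor Rlm1, or of Msn2 and Msn4, the activators of the general stress response.

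The GPI proteins among the 10 are CCW12 and CWP2, which coat growing cells, CWP1, a relative of CWP2 found at the birth scar, SED1, the main wall protein of stationary cells, and SPI1, a relative of SED1 that is known to be induced by weak acids and in stationary phase. The PIR proteins are PIR1, PIR3, HSP150 (also PIR2) and CIS3 (also PIR4). YGP1 is a secreted glycoprotein known to be induced when nutrients run short. In the R64 genome 6 of the 10 genes lie in neighbouring pairs with no annotated gene between them: CWP2 and CWP1 on chromosome XI are 1600 bases apart, PIR1 and PIR3 on the same chromosome are 1581 bases apart, and HSP150 and CIS3 on chromosome X are 574 bases apart. CWP2 (259253 to 259531) and CWP1 (261132 to 261851) follow each other on the plus strand, PIR1 (141794 to 142819, minus strand) and PIR3 (144401 to 145378, plus strand) point away from each other, and HSP150 (120449 to 121690, plus strand) and CIS3 (122265 to 122948, minus strand) point towards each other. SPI1 lies on chromosome V (468370 to 468816, plus strand), SED1 on IV (600793 to 601809, plus strand), YGP1 on XIV (336545 to 337609, plus strand) and CCW12 on XII (369697 to 370098, minus strand), all given as coding bounds. Of the 75-base windows, 1.1% of those of PIR1 and of PIR3 and 1.0% of those of HSP150 occur more than once in the genome. The further copy may lie in the same gene or elsewhere. None of the other 7 genes has such a window. Only exact matches were counted, so confusion of reads aligned with mismatches was not assessed.

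The 500 bases before each start codon were searched on both strands for the recognition letters of factors known to act on wall or stress genes. The stress element AGGGG, read by Msn2 and Msn4, was found upstream of 9 of the 10 genes, all but CWP2, and in 34.1% of 6000 yeast promoters. SPI1 held 3 copies, at 373, 265 and 258 bases before its start codon, a number reached by 1.8% of promoters. The Rlm1 box occurred upstream of CWP1, SED1, PIR3 and HSP150, against 9.3% of promoters, and the Swi4 box CGCGAAA upstream of CWP1, CWP2 and CCW12, against 5.8%. The Yap1 box TTACTAA was present in SPI1 and YGP1 (11.8% of promoters), a heat shock element in YGP1 (1.5%), and CACGAAA, a variant Swi4 box, in none (7.2%). A match describes the letters only, and binding was not measured.

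The stretches below come from the RefSeq R64 genome and are shown for the members the results turn on: SPI1 and CWP1, called higher in laser cells at T30, PIR3 and YGP1, called lower over a time step but not between treatments, and CWP2, which holds no stress element. Capitals mark the stress element (AGGGG or its complement CCCCT) in the SPI1, CWP1, PIR3 and YGP1 lines, the Swi4 box (CGCGAAA or its complement TTTCGCG) in the CWP1 and CWP2 lines, the Rlm1 box in the CWP1 and PIR3 lines, and the heat shock element in the YGP1 line. The SPI1 line is chrV:468080-468129, the CWP1 line chrXI:260652-260761, the PIR3 line chrXI:144081-144140, the YGP1 line chrXIV:336085-336134 and the CWP2 line chrXI:258923-258962, all on the plus strand.
SPI1: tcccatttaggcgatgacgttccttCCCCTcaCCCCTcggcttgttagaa
CWP1: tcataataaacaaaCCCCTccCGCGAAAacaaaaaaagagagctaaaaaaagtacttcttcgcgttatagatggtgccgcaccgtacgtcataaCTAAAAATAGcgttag
PIR3: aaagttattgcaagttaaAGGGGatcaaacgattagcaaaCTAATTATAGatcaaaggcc
YGP1: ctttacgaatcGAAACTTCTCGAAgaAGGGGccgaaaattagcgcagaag
CWP2: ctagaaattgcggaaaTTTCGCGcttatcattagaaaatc

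Levels are given as RPKM, reads scaled to gene length and to the mapped reads of the library, which compares genes per length and libraries per read. RPKM is a share of the sequenced RNA, so a transcript held by fewer cells and a transcript at a lower level in each cell cannot be told apart. The steps between the low values of each library gave an estimated depth of 2579000 to 5359500 reads, with a median of 3816500. At that depth the least abundant member, PIR3, rested on 17 reads in its lowest library, a counting error of 24.3%, CWP1 rested on 84 reads, an error of 10.9%, and no library held fewer than 251 reads of any of the other 8.

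The 10 genes spanned a wide range of levels. CCW12 was the most abundant transcript of all in at least 1 library and stayed among the top 10 in every library, and CWP2 ranked between 2 and 103. In control cells at T0 the order by mean RPKM was CCW12 at 16844, CWP2 at 12549, SED1 at 4226, SPI1 at 2462, YGP1 at 1108, CWP1 at 1000.1, PIR1 at 817, CIS3 at 725.3, HSP150 at 724.7 and PIR3 at 94.4. CCW12, CWP2, the SED1 and SPI1 pair, the group from YGP1 to HSP150, and PIR3 were set apart, whereas SED1 overlapped SPI1, and each neighbour from YGP1 down to HSP150 overlapped the next in its replicates. Together the 10 transcripts made up 3.28% ± 0.58 (SD, n = 3) of the summed RPKM in control cells at T0 and 2.09% ± 0.23 at T60, and 3.21% ± 0.39 and 1.65% ± 0.21 in laser cells.

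Members differed widely in how far they moved over the 24 libraries. The highest value exceeded the lowest 42.6-fold for CWP1, 30.7-fold for PIR3, 22.3-fold for SPI1 and 10.2-fold for SED1, and YGP1 ran from 124 to 1750 RPKM. It did so 5.86-fold for PIR1, 3.73-fold for HSP150, 2.91-fold for CWP2, 2.24-fold for CCW12 and 1.95-fold for CIS3. CCW12 and CWP2, the coat of growing cells, were among the 3 with the narrowest ranges.

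**Figure D1:**
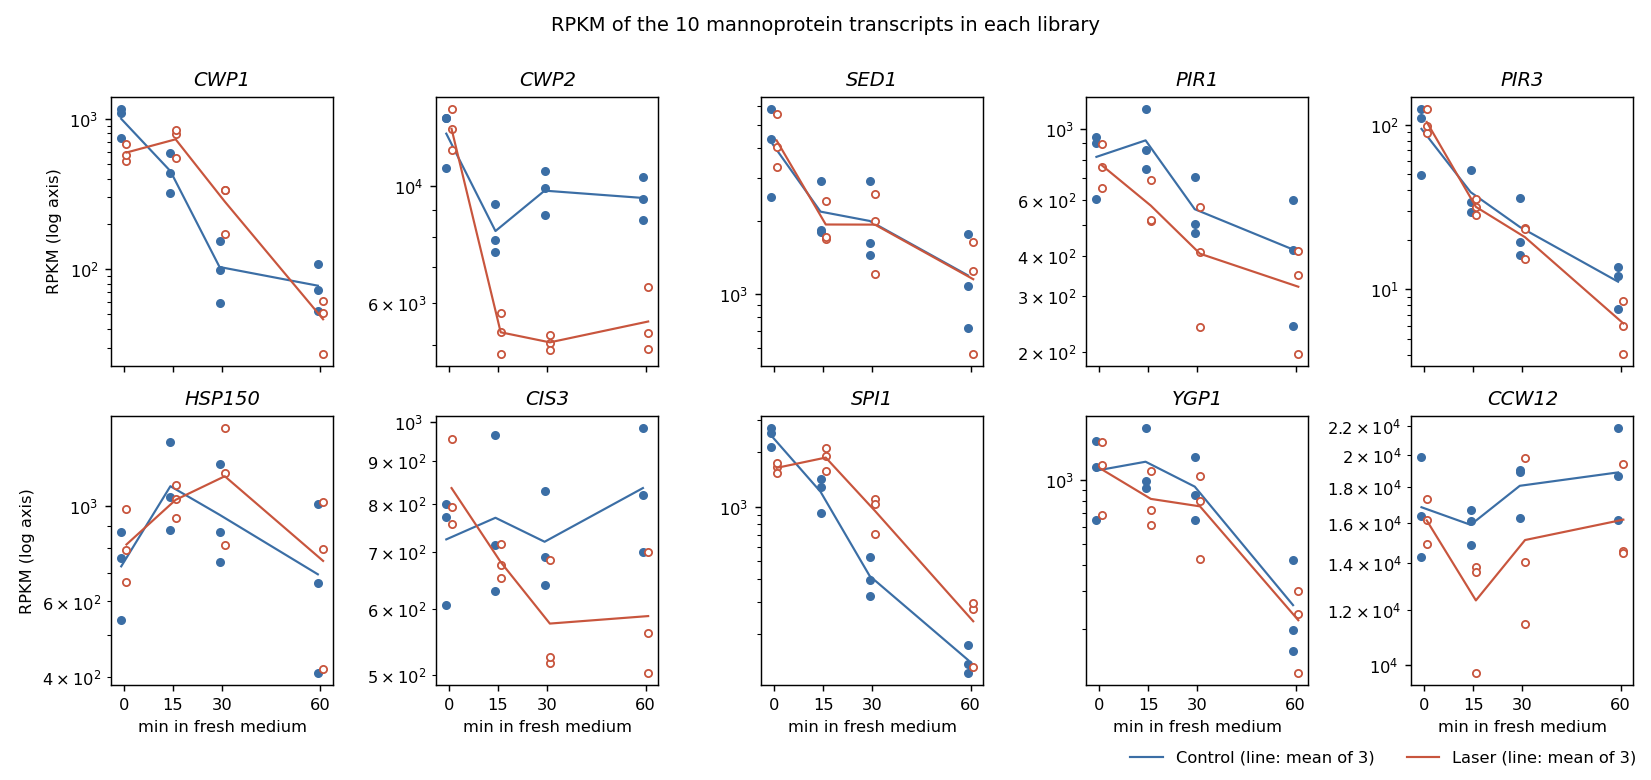
RPKM (log axis) of each of the 10 mannoprotein transcripts against minutes in fresh medium, with control libraries as filled points, laser libraries as open points and lines through the means of 3. The control and laser points of CWP1 and SPI1 separate at T30 (59.1 to 153 against 171 to 338 for CWP1, 321 to 531 against 712 to 1101 for SPI1), and those of CWP2 separate at T15, T30 and T60.

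Laser and control cells were compared at each time point with limma on log2(RPKM + 1). Calls needed a p-value, adjusted over all genes tested, under 0.05 and a log2 fold change (Log2 FC) of at least 1 in size, that is 2-fold. All 10 genes passed the filter on low values. The result turned on 2 genes: at T30 SPI1 and CWP1 were more abundant after irradiation. The members as a list did not share that direction, since 7 of the 10 lay below 0 at T30, with a median Log2 FC of -0.22 against 0.15 over all genes tested.

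SPI1, the weak-acid and stationary-phase wall protein, stood at 2139, 2547 and 2701 RPKM in the control libraries at T0 and at 1649, 1734 and 1528 in the laser libraries. At T15 it stood at 920.1, 1290 and 1420 in control cells and at 1565, 2117 and 1914 in laser cells. The laser libraries were thus all lower at T0 and all higher at T15, with no overlap at either time. At T30 the control libraries held 321, 395 and 531 RPKM and the laser libraries 712, 1101 and 1036. At T60 they held 121, 136 and 173 against 132, 275 and 296. The gap was clear at T30, and at T60 laser replicate 1 lay within the control range. SPI1 was 2.29-fold higher in laser cells at T30 (Log2 FC 1.19, SE 0.24, adjusted p = 0.007), and the ratio of laser to control between libraries of the same number was 2.22, 2.79 and 1.95. The differences at T0 (Log2 FC -0.58, adjusted p = 0.693), T15 (0.64, adjusted p = 0.0751) and T60 (0.63, adjusted p = 0.668) were not called.

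CWP1, the birth-scar mannoprotein, had a like course. It stood at 742, 1093 and 1165 RPKM in control and 685, 527 and 578 in laser cells at T0, and at 322, 434 and 591 against 552, 797 and 843 at T15. The laser libraries were all lower at T0, while at T15 the lowest laser library lay among the control libraries. At T30 the control libraries had dropped to 59.1, 97.8 and 153 RPKM and the laser libraries stood at 171, 338 and 335. At T60 the values were 52.7, 72.3 and 107 in control and 27.3, 50.7 and 60.9 in laser cells, so that the groups overlapped again and the laser library was the lower in each of 3 same-numbered pairs. CWP1 was 2.78-fold higher in laser cells at T30 (Log2 FC 1.47, SE 0.35, adjusted p = 0.0154). At T0, T15 and T60 its Log2 FC was -0.72 (adjusted p = 0.641), 0.72 (adjusted p = 0.0546) and -0.75 (adjusted p = 0.63). The T30 call for CWP1 was lost without control replicate 1 (Log2 FC 1.13, adjusted p = 0.0642) or without laser replicate 2 (1.31, adjusted p = 0.0579). Without the filter on low values it was lost for both genes, with an adjusted p of 0.114 for CWP1 and 0.0503 for SPI1.

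SPI1 and CWP1 make 2 of 10 members called at T30, both higher, against 11.8% of all 5871 genes called and 10.6% called higher. At T15, where 13.1% of all genes were called, limma called 0 of the 10 members, and 3 had an unadjusted p under 0.05. At T0 it called 0 of the 10 against 0.0170% of all genes, with 2 members under 0.05 unadjusted (CWP1 and SPI1), and at T60 it called 0 of the 10 against 0.238%, with 2 under 0.05 unadjusted (CWP2 and CIS3).

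**Figure D2:**
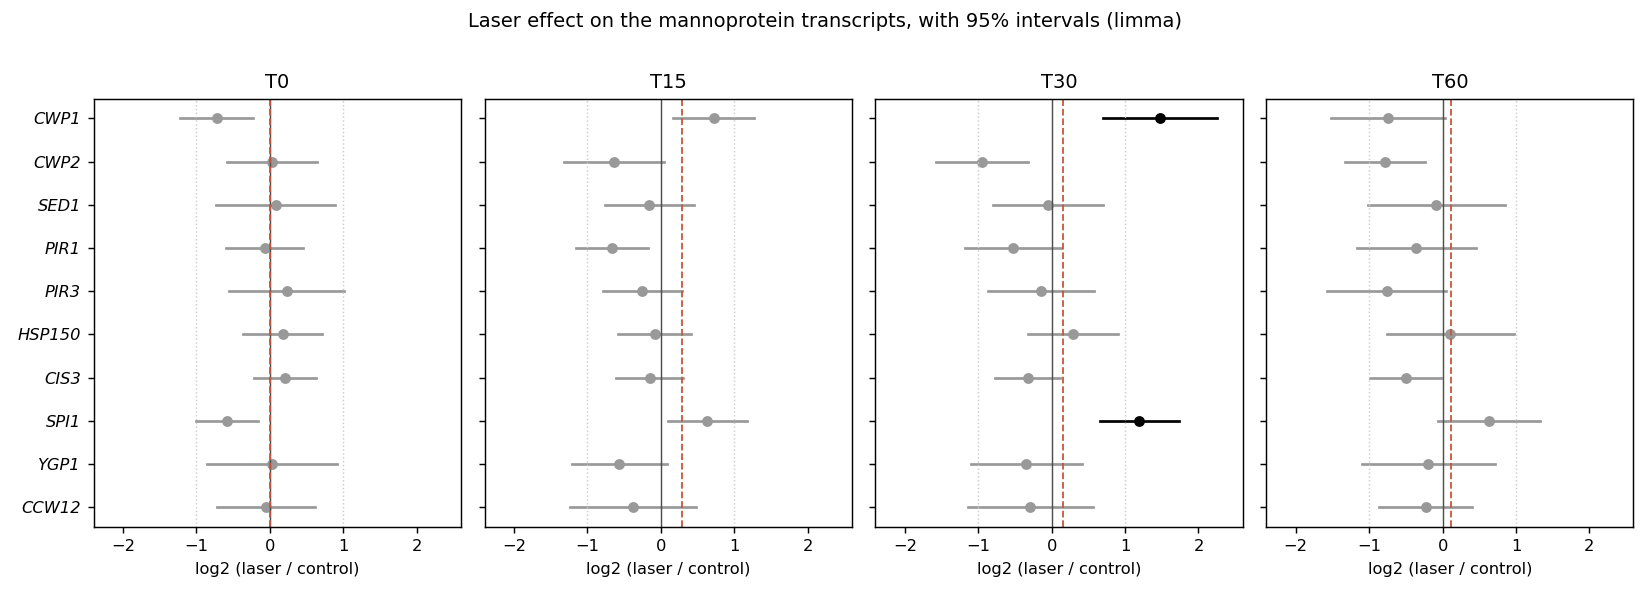
Log2 fold change of laser over control (x axis) for each mannoprotein transcript at T0, T15, T30 and T60, as points with 95% intervals from limma over 6 libraries. Black marks the 2 calls, CWP1 at 1.47 and SPI1 at 1.19 at T30, grey the rest, and the red dashed line the median of all genes tested, which was 0.01, 0.29, 0.15 and 0.11.

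CWP2, the abundant coat protein of growing cells, lay on the other side. It stood at 10809, 13423 and 13417 RPKM in control and 11677, 12796 and 13982 in laser cells at T0. At T15 the control libraries held 7492, 7899 and 9224 RPKM and the laser libraries 4807, 5743 and 5277. At T30 the values were 8789, 9894 and 10676 against 5036, 4894 and 5217, and at T60 they were 8606, 9441 and 10392 against 4899, 5249 and 6441. From T15 on every laser library was below every control library. The Log2 FC was 0.03 at T0, -0.64 at T15 (adjusted p = 0.147), -0.95 at T30 (SE 0.29, adjusted p = 0.0448) and -0.78 at T60 (adjusted p = 0.313). CWP2 thus passed the p threshold at T30, as did 16.5% of all genes at any fold, but stayed just short of 2-fold, and it was called there after the libraries were rescaled by median ratios (-1.14, adjusted p = 0.0388). With a library left out its adjusted p at T30 ran from 0.0183 to 0.268, and it missed the threshold without any of the control libraries or without laser replicate 2.

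The 4 PIR genes were not called at any time. PIR1 stood at 856, 750 and 1156 RPKM in control and 515, 518 and 690 in laser cells at T15, with no overlap. Its Log2 FC there was -0.67 (SE 0.22), with an adjusted p of 0.046 that passed without reaching 2-fold, and it was the only member to do so at T15, where 26.9% of all genes passed at any fold. With a library left out that p ran from 0.0106 to 0.146, and it missed the threshold without control replicate 1 or 3 or laser replicate 1 or 2. PIR1 was also lower in each same-numbered pair at T30 (Log2 FC -0.53, adjusted p = 0.285) and T60 (-0.36, adjusted p = 0.996). CIS3 stood at 702, 820 and 983 RPKM in control and 503, 561 and 700.2 in laser cells at T60, the only time at which its groups did not overlap (Log2 FC -0.50, adjusted p = 0.57). HSP150 stood at 742, 869 and 1258 RPKM in control and 814, 1194 and 1521 in laser cells at T30, where the groups overlapped although the laser library was the higher in each same-numbered pair (Log2 FC 0.29, adjusted p = 0.562). PIR3 overlapped between laser and control at every time. Its lowest values were those of laser cells at T60, 4.07, 8.55 and 6.02 RPKM against 7.63, 12.1 and 13.7 in control cells (Log2 FC -0.76, adjusted p = 0.65).

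SED1, the stationary-phase wall protein, differed from its relative SPI1. Its Log2 FC was 0.08, -0.16, -0.05 and -0.09 at T0, T15, T30 and T60, and its groups overlapped each time. At T30, where SPI1 separated, SED1 stood at 1453, 1629 and 2925 RPKM in control and 1213, 2006 and 2582 in laser cells. The 95% interval of that difference ran from -0.80 to 0.71. YGP1 stood at 915, 994 and 1750 RPKM in control and 615, 726 and 1105 in laser cells at T15, lower with laser in each same-numbered pair but overlapping (Log2 FC -0.56, adjusted p = 0.176). CCW12 stood at 16089, 16703 and 14893 RPKM in control and 13816, 13604 and 9748 in laser cells at T15. Those groups did not overlap, and the difference was not called (Log2 FC -0.38, SE 0.39, adjusted p = 0.506).

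Each culture was split into both treatments, but that a replicate number marks the 2 portions of 1 culture is not given in the sources used here. At T15 the laser and control libraries of each number deviated together from their group means (r of 0.22, 0.33 and 0.48). With the number as a block, 6 of 10 members passed the p threshold at T15, all at changes below 2-fold, against 53.7% of all genes. Higher in laser cells were CWP1 (adjusted p = 0.00139) and SPI1 (adjusted p = 0.00246), 2 of 10 against 41.2% of all genes, and lower were CWP2, PIR1, YGP1 and CCW12, 4 of 10 against 12.5%. The r values were 0.27, 0.05 and 0.48 at T30 and 0.52, -0.03 and 0.53 at T60. With the block in limma, CWP2 (adjusted p = 0.00615) and PIR1 (0.0141) passed as lower at T30, below 2-fold. CWP2 (7.52e-05), CWP1 (0.000257), CIS3 (0.00501) and PIR3 (0.0422) passed as lower at T60, below 2-fold. SPI1 (0.000615) passed as higher there, also below 2-fold. The share of all genes passing with the block at T30 and T60 is not given here.

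Whether the laser changed the course in medium was read from the steps between time points, in a fit of all 24 libraries. Neighbouring steps share the samples of the time point between them. In the first 15 min control cells lost CWP1 (Log2 FC -1.17, adjusted p = 0.0166), SPI1 (-1.04, adjusted p = 0.00554) and PIR3 (-1.19, adjusted p = 0.0121). These 3 of 10 stand beside 13.7% of all genes called, 12.1% of all genes called lower, and the median gene lay at -0.33. After rescaling by median ratios the 3 values were -0.83, -0.71 and -0.86 and none reached 2-fold. CWP1 and PIR3 were also lost without control T0 replicate 2, control T0 replicate 3 or control T15 replicate 1 (adjusted p of up to 0.0916 and 0.0835), and SPI1 without the latter 2 libraries, where its Log2 FC was -0.97 and -0.86.

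In laser cells over the same 15 min CWP2 fell to 0.41 of its T0 level (Log2 FC -1.28, SE 0.20, adjusted p = 0.000129) and PIR3 to 0.31 (-1.67, SE 0.34, adjusted p = 0.00186), which makes 2 of 10 members against 7.01% of all genes, 4.26% lower. SED1 was not called (Log2 FC -1.14, adjusted p = 0.0709) but was after rescaling by median ratios (-1.09, adjusted p = 0.0149). CWP1 and SPI1 stood at 0.28 (adjusted p = 0.715) and 0.18 (adjusted p = 0.757) on the log2 scale. The difference between the laser and control steps was 1.45 for CWP1 (SE 0.50, adjusted p = 0.0974) and 1.22 for SPI1 (SE 0.37, adjusted p = 0.0605). It was -0.67 for CWP2 (adjusted p = 0.181) and -0.48 for PIR3 (adjusted p = 0.628). Thus limma called 0 of the 10 against 4.20% of all genes, with 3 members under 0.05 unadjusted. With the replicate number as a block, limma called this difference for CWP1 (adjusted p = 0.00143) and SPI1 (adjusted p = 0.00118). The share of all genes called with that block is not given here.

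From T15 to T30 control cells lost further CWP1 (Log2 FC -2.17, adjusted p = 0.000431) and SPI1 (-1.55, adjusted p = 0.000685), 2 of 10 members beside 2.99% of all genes called and 2.34% called lower. Laser cells lost CWP1 (-1.42, adjusted p = 0.0315), 1 of 10 beside 1.66% called and 1.40% called lower, while SPI1 at -0.99 (adjusted p = 0.0447) was just short of 2-fold. The CWP1 call in laser cells was lost without laser T15 replicate 2, laser T15 replicate 3 or laser T30 replicate 1 (adjusted p of up to 0.227), and without the filter on low values (adjusted p = 0.0529). Over this step limma called a change of the laser effect for 0 of 10 members, against 0.537% of all genes, and 0 of 10 were under 0.05 unadjusted.

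From T30 to T60 control cells lost SPI1 (Log2 FC -1.52, adjusted p = 0.00293) and YGP1 (-1.92, adjusted p = 0.0308), 2 of 10 members beside 0.797% of all genes called and 0.423% called lower. Laser cells lost CWP1 (-2.58, adjusted p = 3.12e-05), SPI1 (-2.08, adjusted p = 1.37e-05), PIR3 (-1.62, adjusted p = 0.00274) and YGP1 (-1.77, adjusted p = 0.00898), 4 of 10 beside 6.13% called and 5.09% called lower. YGP1, the nutrient-limitation glycoprotein, had held 649, 855 and 1290 RPKM in control cells at T30 and stood at 157, 197 and 421 at T60, with 423, 794 and 1040 and then 124, 234 and 300.1 in laser cells. Its groups did not overlap between T30 and T60 in either treatment. The laser effect on CWP1 changed between T30 and T60 by -2.22 on the log2 scale (SE 0.50, adjusted p = 0.0158), 1 of 10 members beside 2.34% of all genes called and 2.08% called lower. That call was lost without control T30 replicate 1, control T60 replicate 3 or laser T30 replicate 2, where the adjusted p was at most 0.0594, and the YGP1 step of control cells was lost in 4 of 6 such omissions, those of control T30 replicates 2 and 3 and control T60 replicates 1 and 2 (adjusted p of up to 0.203), and without the filter on low values (adjusted p = 0.0676). The YGP1 step of laser cells was lost without laser T30 replicate 3 (-1.49, adjusted p = 0.0639) or laser T60 replicate 1 (-1.41, adjusted p = 0.0757).

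The same course can be read as a percentage of the T0 level of the same replicate number. That a number marks 1 culture throughout is not given in the sources used here. SPI1 stood at 48.7% ± 5.06, 16.7% ± 2.56 and 5.80% ± 0.55 (SD, n = 3) of T0 at T15, T30 and T60 in control cells and at 114% ± 16.7, 58.2% ± 13.2 and 14.4% ± 5.83 in laser cells. CWP1 stood at 44.6% ± 5.59 at T15, between 7.97% and 13.1% at T30 and at 7.65% ± 1.38 at T60 in control cells and at 126% ± 39.3, 49.0% ± 21.1 and 8.04% ± 3.54 in laser cells. The T0 values of SPI1 and CWP1 lay lower in laser cells without being called, and a lower T0 value raises these percentages. CWP2 and PIR3 went the other way at T15: CWP2 stood at 41.3% ± 3.57 in laser against 65.6% ± 5.89 in control cells, with no overlap, and PIR3 at 30.7% ± 2.10 against 44.7% ± 14.6, with overlap. SED1 reached 28.0% ± 2.94 of T0 in control and 25.8% ± 7.73 in laser cells at T60. CIS3 kept 115% ± 12.4 of its T0 level at T60 in control and 70.2% ± 3.48 in laser cells.

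**Figure D3:**
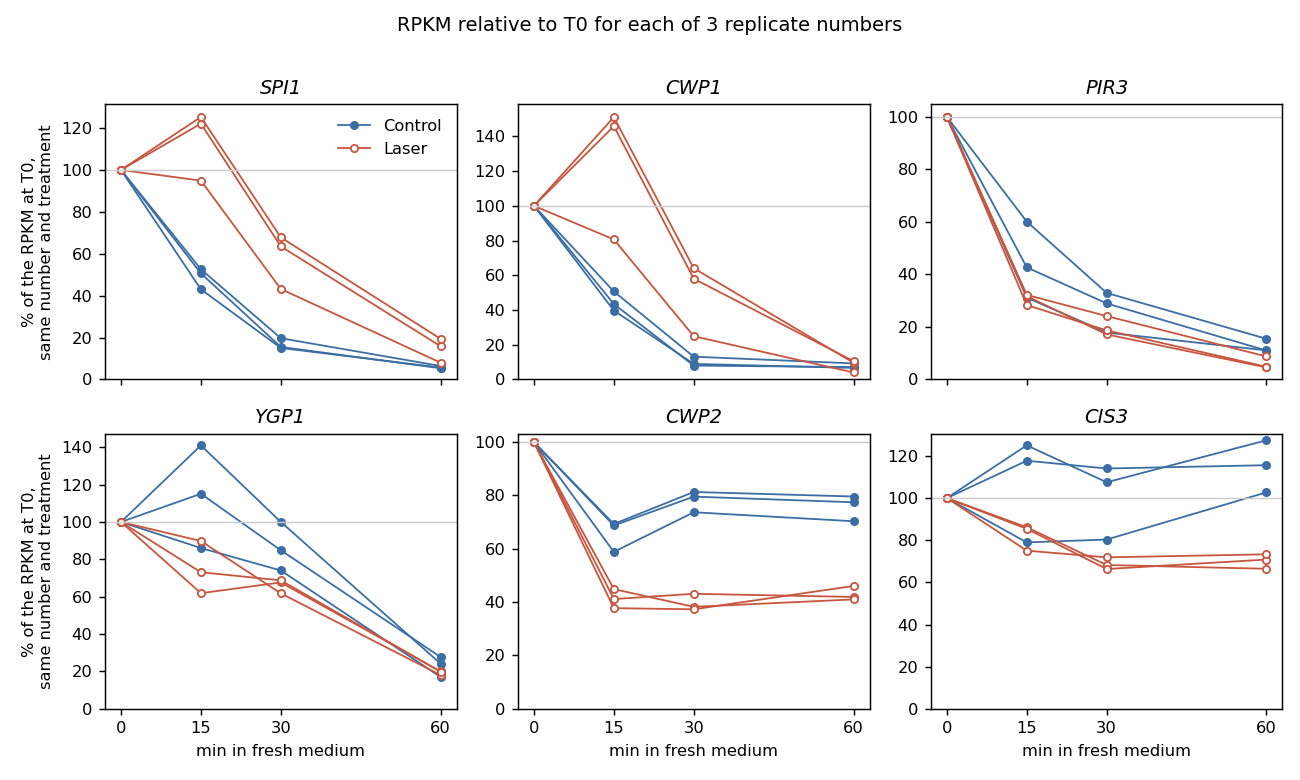
RPKM as a percentage of the T0 value of the same replicate number and treatment (y axis) against minutes in fresh medium for SPI1, CWP1, PIR3, YGP1, CWP2 and CIS3, with 1 line for each of 3 replicate numbers, filled for control and open for laser. At T15 the laser lines of SPI1 lie at 94.9% to 125% and the control lines at 43.0% to 52.6%, while for CWP2 the laser lines lie at 37.7% to 44.9%, under all control lines.

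Ratios of relatives within a library do not depend on how libraries are scaled. CWP1 made up 6.86, 8.14 and 8.69 per 100 of CWP2 in control cells at T0 and 5.87, 4.12 and 4.14 in laser cells, lower with no overlap (log2 difference -0.76, exact permutation p = 0.1). At T15 the laser libraries were the higher ones. CWP1 then made up 4.30, 5.49 and 6.40 per 100 of CWP2 in control cells at T15 and 11.5, 13.9 and 16.0 in laser cells. At T30 it made up 0.673, 0.989 and 1.43 per 100 in control and 3.39, 6.91 and 6.43 in laser cells, a log2 difference of 2.43 (exact permutation test, two-sided, p = 0.1, the smallest that 3 against 3 can give). The groups overlapped at T60, with 0.613, 0.766 and 1.03 against 0.558, 0.966 and 0.945. SPI1 made up 22.1, 24.2 and 18.2 per 100 of SED1 in control cells at T30 and 58.7, 54.9 and 40.1 in laser cells, with no overlap either (log2 difference 1.24, exact permutation p = 0.1). The neighbours HSP150 and CIS3 shifted less: HSP150 made up 107, 136 and 152 per 100 of CIS3 in control and 158, 227 and 222 in laser cells at T30 (log2 difference 0.62, exact permutation p = 0.1). PIR3 per 100 of PIR1 overlapped at T0, T30 and T60. In all 16 ratios were computed, 4 pairs at 4 times, and with 3 libraries against 3 no adjusted p can pass the threshold.

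**Figure D4:**
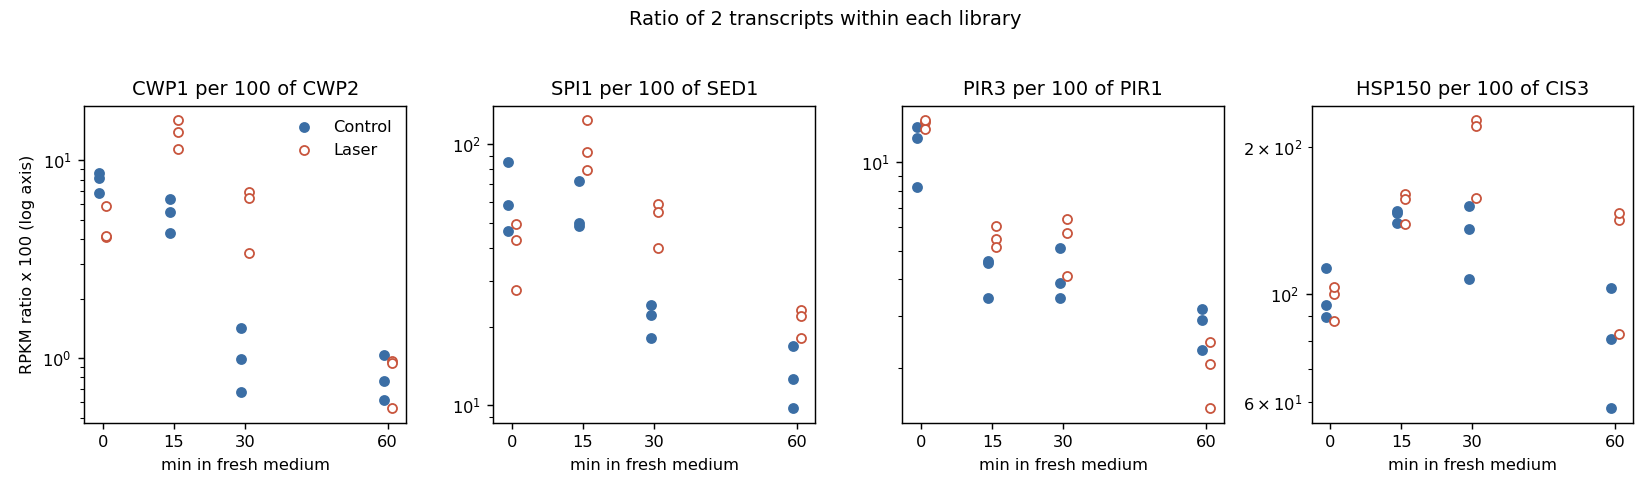
RPKM of 1 transcript per 100 RPKM of its relative or neighbour in the same library (log axis) against minutes in fresh medium, with control libraries filled and laser libraries open. For CWP1 per 100 of CWP2 the control libraries lie at 0.673 to 1.43 at T30 and the laser libraries at 3.39 to 6.91, while at T0 the laser libraries lie lower, at 4.12 to 5.87 against 6.86 to 8.69, and the groups overlap at T60.

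Over the 24 libraries CWP1 and SPI1 followed each other (Pearson r = 0.96 of log2 values), as did SED1 and PIR3 (0.92), and HSP150 and CCW12 ran opposite (-0.73). The libraries share treatments and times, so these values describe the course and are no test. Among 5104 genes with a mean RPKM of at least 10, the 3 most like CWP1 were LSP1, a core protein of eisosomes, DDR2, a stress-induced gene, and NCE102, an eisosome protein (r of 0.98 for each). For SPI1 they were FMP45, SOL4 and MSC1 (r of 0.98, 0.98 and 0.97), and for PIR3 FMP48, SIC1, the inhibitor of B-type cyclin kinase, and CTT1, the cytosolic catalase (0.95, 0.95 and 0.94). CIS3 was nearest to SIM1, SRL1 and SCW4 (0.90, 0.90 and 0.86), YGP1 to PST1, SKN1 and PMA2 (0.93, 0.92 and 0.91), and PIR1 to NIS1, PMA2 and ASG1 (0.93, 0.93 and 0.91). SED1 was nearest to KRE2, a mannosyltransferase, GZF3 and MCM1 (each 0.96), HSP150 to ARC1, VTC4 and ITC1 (0.91, 0.90 and 0.90), CWP2 to ACO1, the aconitase, CIR2 and SCS7 (0.92, 0.90 and 0.90), and CCW12 to YNL010W, DUT1 and CAF20 (0.94, 0.89 and 0.86).

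The other genes that build the wall were read in the same comparisons. At T15 2 of the 23 other wall proteins tested were called higher in laser cells and 0 lower, beside 13.1% of all genes called. The 2 were SPS100, a spore wall protein (Log2 FC 1.73, adjusted p = 0.00754), and FIT2, a mannoprotein that holds siderophore iron (1.57, adjusted p = 0.000491). Below 2-fold, FIT3 passed the p threshold as higher (0.80, adjusted p = 0.0105). TIP1, AGA1 and AGA2 passed as lower (-0.88, -0.93 and -0.91, adjusted p of 0.00916, 0.0304 and 0.00503). FIT3, TIP1, AGA1 and AGA2 were named at T15 after their values were seen, and 26.9% of all genes passed at any fold. At T30 3 of the 23 were called higher and 3 lower, beside 11.8% of all genes called. Higher were FIT2 (3.44), SPS100 (3.41, from a control mean of 1.56 RPKM) and FIT3 (1.22). Lower were TIR3 (-1.37) and both parts of the a-agglutinin of mating, AGA1 (-1.28) and AGA2 (-1.23). The median Log2 FC of the 23 at T30 was 0.08, against -0.22 for the 10 mannoproteins. Of these 23 only FIT2 was called at T60 (2.38), and none was called at T0.

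Among 36 glucan and chitin enzymes, GSC2, the stress form of glucan synthase, was higher at T15 (Log2 FC 1.76, adjusted p = 0.00199) and T30 (1.36, adjusted p = 0.02). CHS6 was higher at T15 (1.08) and NCA3 at T30 (1.05), and UTR2, a chitin-glucan crosslinker, was lower at T30 (-1.07). At any fold 5 of the 36 passed the p threshold as higher and 5 as lower at T15, and 3 and 3 at T30. The 5 lower at T15 were FKS1 (-0.69), GAS1 (-0.76), UTR2 (-0.98), SUN4 (-0.68) and SCW11 (-0.64). Lower at T30, beside UTR2, were GAS1 (-0.83) and SCW10 (-0.81). FKS1, GAS1, SUN4 and SCW10 were named after their values were seen. Of 23 genes of wall integrity signalling, 1 was called at each of 2 times, PTP2 at T15 (1.01, adjusted p = 0.0325) and SDP1 at T30 (2.74, adjusted p = 0.00229). Both are phosphatases known to act on Slt2. SDP1 had a control mean of only 1.10 RPKM at T30. Below 2-fold, SLT2 itself passed the p threshold as higher at T15 (0.77, adjusted p = 0.0198) and T30 (0.83, adjusted p = 0.0303). SDP1 passed as higher at T15 (0.99, adjusted p = 0.028). These values were added after they were seen, and 26.9% of all genes passed at any fold at T15 and 16.5% at T30. Of 16 genes that process wall proteins, YPS1 and YPS6, GPI-anchored proteases called yapsins, were higher at T15 (2.21 and 1.49) and T30 (1.26 and 1.90). The control mean of YPS6 was 2.85 RPKM at T15 and 1.53 at T30. Read numbers were not estimated for these genes. The counts called in these lists stand beside 13.1% of all genes called at T15 and 11.8% at T30. The 25 mannosylation genes and the 14 genes of daughter cell separation, of which CTS1, SCW11 and PRY3 also stand in other lists, had 0 calls by limma at every time. Below 2-fold, VRG4, the Golgi GDP-mannose transporter, passed the p threshold at T15 (-0.61, adjusted p = 0.048) and T30 (-0.78, adjusted p = 0.0166), and SCW11, AMN1 and ASH1 of the separation list passed at T15 (-0.64, -0.70 and -0.91). These 4 genes were named after their values were seen. Of the 7 lists, that of cell separation had the lowest median at T15, -0.36, beside -0.20 for the mannoproteins and 0.29 for all genes. That list also had the lowest median at T0, -0.19, beside 0.01 for all genes. SCW11 and AMN1 already lay lower in laser cells at T0 without being called (-0.79 and -0.58, adjusted p of 0.205 and 0.577). ASH1 did not (0.13).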

How the data were processed

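Poly(A) RNA was sequenced by the authors with the TruSeq Stranded mRNA kit as paired reads of 75 bases, aligned to the S288C genome in SeqMan NGen 14.1.0, and expressed per gene in ArrayStar 14.1.0. The values used are the deposited RPKM values, which the authors scaled to gene length and mapped reads; a gene without reads is listed at 0.021. How strand was used in counting is not given in the sources used here. The deposited tables also hold group means, fold changes, t scores and p-values of the authors' own comparison, which were not used. Each of the 24 value columns matched a sample label, and 0 columns were left unmatched.

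Groups came from the labels. Log2(RPKM + 1) was tested with limma 3.58.1 in R 4.3.3 with a variance trend, on genes reaching an RPKM of 1 in 3 or more libraries, and p-values were adjusted over all genes by Benjamini-Hochberg. Laser and control were compared in the 6 libraries of a time point, unpaired as in the study, and steps of time and changes of the laser effect in a fit of 24 libraries. Ratios were tested by exact permutation, and percentages are over 3 replicate numbers. The fit was tested on simulated data. Depth was estimated from the steps between low RPKM values and R64 gene lengths of 5982 genes, where 89.9% to 94.3% of low values lay within 0.08 of a whole read (16% by chance). It gives counting error only. Each repeat of the experiment was split into laser and control cells, but that the numbers of the labels tie the portions of 1 repeat is not given in the sources used here. All 3 same-numbered pairs correlated by over 0.1 in their deviations from the group means at T15, which was taken as a pairing there, and not at the other times. Number 2 correlated by 0.06, 0.05 and -0.03 at T0, T30 and T60. The split into portions was the same at every time, so this was a choice made from the correlations. Alternatives were a pseudocount of 0.1, no filter or a filter of 5, rescaling by median ratios, the block, a fit of 24 libraries for laser against control, and leaving out each library.

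All 10 members are named. Of the other lists, up to 4 called genes of smallest p per laser comparison are named, and for each member the 3 genes of highest correlation. Members and lists were chosen with earlier results of these data known. Files were read with Python 3.11.15, pandas 2.3.3 and NumPy 2.4.6, and plots drawn with Matplotlib 3.10.9. A further promoter motif that was searched is not reported here.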

Additional observations from a re-analysis of the deposited data

Results flagged for a closer look

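The laser effect on CWP1 differed between T30 and T60: the laser minus control difference moved by -2.22 on the log2 scale (limma, SE 0.50, adjusted p = 0.0158), from 1.47 at T30 to -0.75 at T60. The laser library was the higher in 3 of 3 same-numbered pairs at T30 and the lower in 3 of 3 at T60. At T60 CWP1 rested on 84 to 277 estimated reads per library, and what lies behind the turn was not tested.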

How the results depend on the processing

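With a pseudocount of 0.1, a filter of 5 or a single fit of 24 libraries, every count of called members stayed within 1.5 times its value in the report. Without a filter on low values the calls for laser against control at T30 went from 2 to 0, for T30 against T15 in laser cells from 1 to 0 (CWP1), and for T60 against T30 in control cells from 2 to 1 (YGP1 lost). Rescaling by median ratios, which took the all-gene medians at T15 and T30 to -0.02 and -0.03, left 0 calls for T15 against T0 in control cells, added SED1 in laser cells over that step and turned HSP150 at T60 to -0.00086. Laser and control libraries of 1 number correlated by -0.03 to 0.53 in their deviations from the group means, and the control library correlated best with the laser library of its own number in 9 of 12 pairs. The replicate block gave 2 calls for the change of the laser effect from T0 to T15 (CWP1 and SPI1) and added SED1 in laser cells from T0 to T15. It changed no other call.

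Leaving out each library in turn gave 1 to 2 calls for laser against control at T30, 0 to 1 at T60 (SPI1, adjusted p = 0.0232 without laser replicate 1), 0 to 4 for T15 against T0 and 1 to 2 for T60 against T30 in control cells, 0 to 1 for T30 against T15 in laser cells, and 0 to 1 for the change of the laser effect from T0 to T15 (SPI1, adjusted p = 0.044 without control T0 replicate 1) and from T30 to T60. Members near 0 turned sign in such omissions. At T0 the values ran from -0.070 to 0.10 for CWP2, -0.26 to 0.35 for SED1, -0.28 to 0.049 for PIR1, -0.18 to 0.48 for PIR3, -0.015 to 0.33 for HSP150, -0.31 to 0.35 for YGP1 and -0.16 to 0.075 for CCW12. At T15 they ran from -0.33 to 0.071 for SED1, -0.24 to 0.10 for HSP150 and -0.28 to 0.022 for CIS3, at T30 from -0.29 to 0.26 for SED1, -0.37 to 0.18 for PIR3 and -0.63 to 0.022 for YGP1, and at T60 from -0.40 to 0.36 for SED1, -0.23 to 0.48 for HSP150 and -0.48 to 0.23 for YGP1. With 3 libraries a group, few members passed the p threshold at changes below 2-fold without the block, and the depth limits PIR3 most. The cause of these dependencies was not tested.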
